A study of Mus musculus with 3 samples.

Results

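The odorant receptor genes of mouse chromosome 10 lie in a small cluster near 78 Mb and a larger cluster toward the end of the chromosome, and the 5′ ends of their transcripts were read on 3 tiling arrays. The members were the rows on chromosome 10 of the deposited table of named receptor promoters, which gives 1 position and a strand per row in the mm9 build. Names in more than 1 row and unannotated pseudogenes were left out. This kept 61 of the 71 rows on the chromosome, and 61 of 1085 in the whole table. The 78 Mb cluster held 8 members and the larger cluster held 53. The rule itself uses no measured value, but it was chosen with earlier results of these data known. The sources used here do not say how the named positions were set, and they may not be independent of the signal on these arrays.

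RNA came from the olfactory epithelium of C57/Bl6 mice aged 6 to 8 weeks, with the tissue of 5 animals pooled for each sample. In RLM-RACE, an RNA adapter is joined to decapped messenger RNA, so that the product begins at the cap. Reverse transcription was primed with degenerate primers against receptor coding sequence, in all 3 samples alike, so other genes of the tissue were not aimed at and no markers of its cell types could be read. The Stringent array carried a product of nested PCR, and the arrays named High Coverage 1 and High Coverage 2 carried products of PCR without nesting. The headers of the score files call the input female for High Coverage 1 and male for High Coverage 2, so a gap between those arrays and a gap between the sexes cannot be told apart. With 1 array against 2 there was no test between the groups, and the values below are descriptions of these arrays.

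Odorant receptors are G protein-coupled receptors of the olfactory sensory neurons, and a mature neuron transcribes a single receptor gene from a single allele. The chromosome 10 genes belong to class II, the larger class in mammals. Most receptor genes have one or more short noncoding exons upstream of an intronless coding exon, so the transcription start usually lies kilobases before the start codon. Signal at a start in whole epithelium depends on how many neurons choose the gene and on how much RNA each makes, and these cannot be told apart here. Receptor promoters often hold sites for the O/E (EBF) factors and for homeodomain factors such as Lhx2.

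The sequences before 4 annotated starts are shown because these are the members whose annotated transcript in RefSeq (GRCm38.p6) does not begin at a start codon. RefSeq windows were at hand for 48 of the 61 members, and 44 of them began with a start codon at the annotated start, so those starts mark coding sequence and their upstream bases are not printed. The windows give the 250 bases before the start, read 5′ to 3′ on the gene's strand. They are chr10:78618075-78618324 on the minus strand, chr10:78875299-78875548 on the plus strand, chr10:78963059-78963308 on the plus strand and chr10:129175055-129175304 on the minus strand. Capitals mark matches to the motifs searched for on both strands, CCCNNGGG (the core of the O/E site), TAATTA (a homeodomain core) and TATAAA.
Olfr1357: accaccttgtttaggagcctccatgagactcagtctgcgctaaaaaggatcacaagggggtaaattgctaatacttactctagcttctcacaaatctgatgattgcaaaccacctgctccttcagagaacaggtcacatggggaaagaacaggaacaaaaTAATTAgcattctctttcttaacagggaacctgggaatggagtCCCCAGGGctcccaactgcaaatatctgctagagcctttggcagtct
Olfr1355: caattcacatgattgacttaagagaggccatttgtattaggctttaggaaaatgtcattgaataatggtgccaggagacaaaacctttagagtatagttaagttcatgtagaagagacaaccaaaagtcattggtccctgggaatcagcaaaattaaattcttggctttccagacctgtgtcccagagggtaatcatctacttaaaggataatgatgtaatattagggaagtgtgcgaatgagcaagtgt
Olfr1353: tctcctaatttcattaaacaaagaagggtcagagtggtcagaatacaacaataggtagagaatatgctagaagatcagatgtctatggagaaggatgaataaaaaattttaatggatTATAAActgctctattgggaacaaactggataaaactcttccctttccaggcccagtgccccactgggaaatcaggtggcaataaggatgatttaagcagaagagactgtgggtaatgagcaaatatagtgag
Olfr772: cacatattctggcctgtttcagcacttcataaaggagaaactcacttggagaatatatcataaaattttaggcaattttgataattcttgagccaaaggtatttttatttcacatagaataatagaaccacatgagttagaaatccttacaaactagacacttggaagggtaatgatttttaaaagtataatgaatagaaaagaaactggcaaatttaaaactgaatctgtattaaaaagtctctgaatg

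In the Olfr1357 window, TAATTA ended 85 bases before the start and CCCNNGGG ended 40 bases before it, with no overlap. The Olfr1353 window held TATAAA, from offset -133. The windows of Olfr1355 and Olfr772 held none of these letters. Among the first 250 bases of all 32851 RefSeq windows, 11.8% held CCCNNGGG, 4.84% held TAATTA and 12.4% held TATAAA. A match describes letters only. The distance between these GRCm38.p6 starts and the mm9 positions read on the arrays was not measured.

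The clusters differ in size and spacing. The 78 Mb members spanned 410 kb, from Olfr1357 at 78081268 to Olfr57 at 78491445, with 6 on the plus strand and 2 on the minus strand. The members of the larger cluster spanned 1209 kb, from Olfr763 at 128445952 to Olfr827 at 129654713, with 23 on the plus strand and 30 on the minus strand. The median gap between neighbouring named positions was 31377 bp in the smaller cluster and 17970 bp in the larger one. Neighbours shared a strand in 7 of 9 pairs and in 45 of 60 pairs. All 61 members matched a coding gene of RefSeq, 60 by symbol and Olfr1518 through a synonym, and all 60 neighbouring pairs stood in the same order there. Of 68 coding receptor genes that RefSeq lists on chromosome 10, 63 had a named position, and Olfr1354, Olfr1358, Olfr780, Olfr785 and Olfr789 had none.

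The value of a member was its highest MAT score within 100 bp of the position. MAT models a probe's brightness from its sequence and combines neighbouring probes, and the authors' score is relative to the probes of its own array, so scores are not set against each other between arrays. Each value was therefore also placed among the scored probes of its array, as a percentile. The highest of many probes is then set against single probes, so a high percentile does not by itself show signal. All 61 windows were scored, with 14 to 42 probes and a median of 38. A region called by the authors reached the window of 44 members on Stringent (72.1%, Clopper-Pearson interval 59.2 to 82.9), against 61.7% of all 1085 named positions. On High Coverage 1 it reached 23 members (37.7%, 25.6 to 51.0), against 36.4% of all positions. On High Coverage 2 it reached 21 members (34.4%, 22.7 to 47.7), against 43.6% of all positions. On each array the share of all positions lay inside the members' interval. The intervals are wide and the members are part of all positions, so this does not settle whether the shares differ. Windows 1 kb upstream of the position were tiled for 27 members, and a called region reached 0 of these on Stringent, with 1 and 2 for High Coverage 1 and 2. Only 1 of the 27 windows belonged to the 78 Mb cluster. Over all named positions 611 such windows were tiled, and regions reached 1.15%, 9.17% and 8.02% of them on the 3 arrays. The intervals cover counting error over positions only, and the regions were called at thresholds that stood for unlike MAT p-values of 1.75e-09, 1.72e-06 and 2.97e-07 on the 3 arrays.

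**Figure D1:**
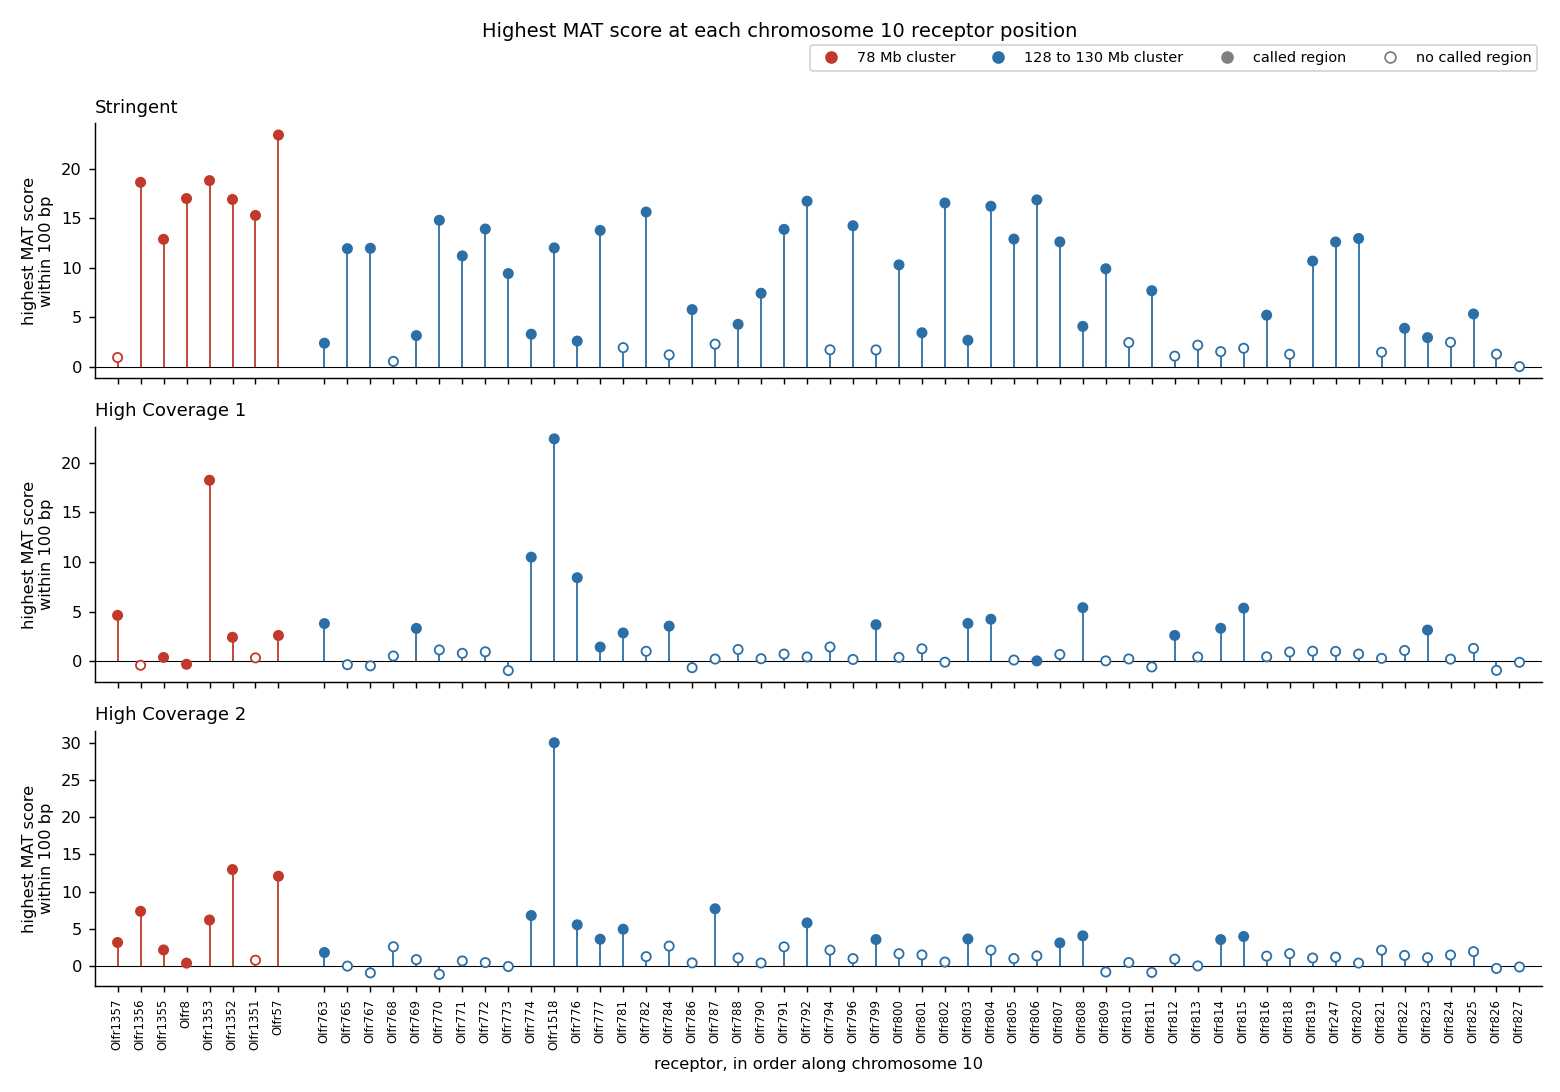
Highest MAT score within 100 bp of each named position (y axis, linear, a scale of its own for each array) for the 61 receptors in order along chromosome 10 (x axis), with filled points for receptors whose window a called region reached. The 7 receptors of the 78 Mb cluster with a Stringent region stand between 12.9 and 23.4, and Olfr1518 is the highest point on both High Coverage arrays.

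The 78 Mb cluster carried a called region more often than the larger cluster on every array. On Stringent the counts were 7 of 8 (87.5%, 47.3 to 99.7) and 37 of 53 (69.8%, 55.7 to 81.7). High Coverage 1 gave 6 of 8 (75%, 34.9 to 96.8) and 17 of 53 (32.1%, 19.9 to 46.3). High Coverage 2 gave 7 of 8 (87.5%, 47.3 to 99.7) and 14 of 53 (26.4%, 15.3 to 40.3). With 8 members the intervals are wide, and on Stringent and on High Coverage 1 they overlap. They count members as independent, although 6 of the 8 carry 1 family name, so nothing is tested by them. The order on High Coverage 1 turned when the region had to cover the position itself, with 2 of 8 members (25%) against 14 of 53 (26.4%). On High Coverage 2 the counts were then 3 of 8 and 9 of 53. The difference moved from 61.1 points (18.6 to 77.6) to 20.5 points (-11.2 to 59.6). With windows of 500 bp on each side it was 38.4 points (-4.11 to 57.0) on that array.

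The median highest score on Stringent was 17.0 in the 78 Mb cluster, 5.22 in the larger cluster and 4.12 at all other named positions. As percentiles these were 99.2, 94.9 and 94.3. On High Coverage 2 the medians were at percentiles 96.3, 88.8 and 92.5 in the same order. The smaller minus the larger cluster was 4.31 points on Stringent (-4.34 to 5.92) and 7.47 points on High Coverage 2 (-11.5 to 11.7). Both intervals are wide and count members as independent, so nothing is tested by them. On High Coverage 1 both clusters had their median at percentile 87.2, below the 91.7 of the other positions, although the smaller cluster had the larger share of regions on that array. With the mean score of the window in place of the highest, the members' median on that array was at percentile 55.9, and the smaller minus the larger cluster turned from 0.0027 to -12.9 points. Of the 8, 3 members (Olfr1355, Olfr8 and Olfr1352) had a High Coverage 1 region that reached the window while no probe of the window passed the array's threshold of 2.53.

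Olfr1355, Olfr8, Olfr1353, Olfr1352, Olfr1351 and Olfr57 make up a plus-strand run in the smaller cluster and share the family name MOR139 among their RefSeq synonyms. MOR numbers group mouse odorant receptors by the likeness of their proteins. All 6 had a Stringent region, with highest window scores from 12.9 to 23.4. In what follows, 3 scores in a row are those of Stringent, High Coverage 1 and High Coverage 2. Olfr57 scored 23.4, 2.60 and 12.1, and the first of these was the highest Stringent score of the 61 members. Olfr1352 scored 16.9, 2.42 and 13.0. Olfr1353, by contrast, was the highest member of the cluster on High Coverage 1, with 18.8, 18.2 and 6.18. All 3 receptors were at or above percentile 95.2 on every array.

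The other 3 MOR139 receptors passed the array's threshold within the window on Stringent alone. Olfr8 scored 17.0, -0.30 and 0.40. Olfr1355 scored 12.9, 0.39 and 2.16, and Olfr1351 scored 15.3, 0.35 and 0.79. For Olfr8 and Olfr1355 a region was nevertheless called on both High Coverage arrays, starting downstream of the position. The Olfr8 regions began 89 bp downstream of the position on High Coverage 1 and 68 bp downstream on High Coverage 2, with region scores of 10.1 and 18.5. Those of Olfr1355 began 57 and 47 bp downstream, with region scores of 16.2 and 15.8. Olfr1351 had no High Coverage region at its position.

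The remaining members of the cluster lie on the minus strand and carry other family names. Olfr1356, named MOR142, scored 18.7, -0.40 and 7.36. Its percentile on High Coverage 1 minus that on High Coverage 2 was -43.8 points, the widest gap of the cluster. Olfr1357, named MOR128, differed from the rest of the cluster in its pattern of regions. It scored 0.93 on Stringent, without a region, and 4.62 and 3.17 on the High Coverage arrays, with a region on both.

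Called Stringent regions began before the position in all 7 members of the cluster that had one, at offsets from -76 to -35 bp (negative is upstream), and extended 269 to 508 bp downstream of it. The Stringent region of Olfr57 ran from 78491369 to 78491714 and that of Olfr8 from 78413182 to 78413678. The median 5′ edge lay at -47 bp on Stringent, 35 bp downstream on High Coverage 1 and 1 bp downstream on High Coverage 2. In the larger cluster the median 5′ edge lay upstream on all 3 arrays, at -44, -50 and -37.5 bp. Stringent regions had a median length of 409 bp in the smaller cluster, 421 bp in the larger one and 306 bp at the other named positions.

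In 50 bp bins along transcription, the median Stringent score of the 78 Mb cluster was 5.26 in the first 50 bp downstream, 12.6 in the next bin and 18.1 between 100 and 150 bp. It was 8.54 between 200 and 250 bp. The larger cluster had a lower and broader profile, with 2.58 in the first bin, 5.13 between 100 and 150 bp and 3.14 between 300 and 350 bp. On High Coverage 2 the smaller cluster peaked at 8.83 between 150 and 200 bp, where the larger cluster had a median of -0.73. On High Coverage 1 the smaller cluster reached 2.52 in that bin. Averaged over 150 bp, scores were higher on the downstream than on the upstream side of the position for 61 of 61 members on Stringent, with 43 and 47 for High Coverage 1 and 2. At the other named positions the corresponding shares were 94.2%, 70.3% and 74.5%.

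**Figure D2:**
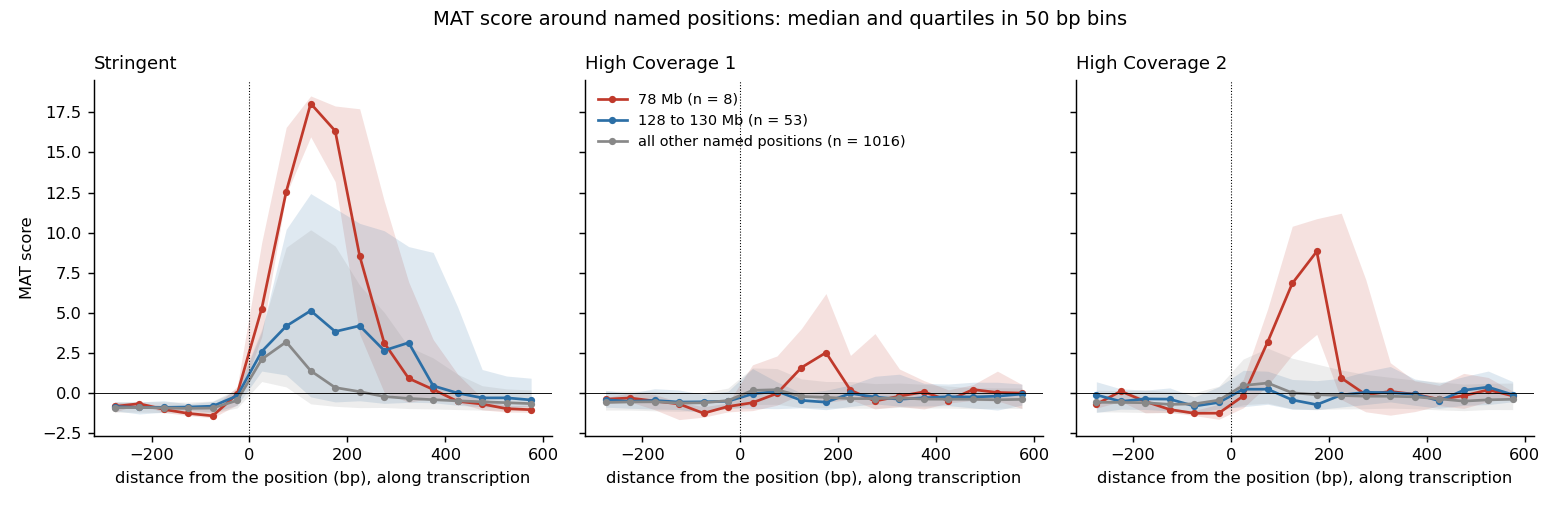
MAT score (y axis) against distance from the named position in the direction of transcription (x axis, bp, in bins of 50 bp) on the 3 arrays, with the median as a line and the quartiles as a band. The 78 Mb cluster peaks 100 to 150 bp downstream on Stringent and 150 to 200 bp downstream on High Coverage 2, and a bin holds at most 1016 of the 1024 other positions.

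Of the 61 members, 12 had a called region on all 3 arrays (19.7%, against 17.3% of all named positions), and 5 of these were MOR139 receptors of the smaller cluster. The others were Olfr763, Olfr774, Olfr1518, Olfr776, Olfr777, Olfr803 and Olfr808, all in the larger cluster. A further 25 members had a region on Stringent alone (41.0%, against 28.3% of all named positions), of which Olfr1351 was the only one near 78 Mb. Stringent and 1 High Coverage array had a region at 7 members (11.5%, against 16.0%). Both High Coverage arrays without Stringent had one at 5 (8.20%, against 9.77%), and 1 High Coverage array alone at 3 (4.92%, against 9.77%). No array had a region at 9 members (14.8%, against 18.8% of all named positions), and all 9 lay in the larger cluster. A region on at least 1 High Coverage array was thus found at 7 of 8 members near 78 Mb and at 20 of 53 in the larger cluster, and at 53.4% of the other named positions.

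Within the larger cluster, Olfr1518 had the highest lowest percentile over the 3 arrays, 97.3. It scored 12.02, 22.4 and 29.97. Its called regions covered 128685437 to 128685718 on Stringent and 128685437 to 128685734 on High Coverage 2, beginning at -50 bp on both. Olfr774 and Olfr776, its neighbours on either side on the plus strand, ranked higher on the High Coverage arrays than on Stringent. Olfr774 scored 3.29, 10.5 and 6.78 on Stringent, High Coverage 1 and High Coverage 2, at percentiles 93.9, 99.2 and 97.8. Olfr776, whose window held 21 probes, scored 2.59, 8.41 and 5.54, at percentiles 93.4, 98.9 and 97.2. All 3 receptors carry the family name MOR111, and their order on each array was Olfr1518, Olfr774 and Olfr776.

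Olfr808, Olfr803 and Olfr763, with regions on all arrays too, stood nearer the thresholds. Olfr808 scored 4.08, 5.4 and 4.06, in a window of 14 probes, the fewest of any member. Olfr803 scored 2.68, 3.81 and 3.64. Olfr763 scored 2.38, 3.80 and 1.82, so that on Stringent and on High Coverage 2 its window stayed below the array's threshold of 2.52 and 2.99 while a region began 81 and 76 bp downstream. Olfr777 scored 13.8 on Stringent and 1.44 and 3.60 on the High Coverage arrays. Its High Coverage 1 region lay wholly upstream, with its 3′ edge at -68 bp, while the Stringent region ran from -52 to 420 bp, so these regions do not overlap.

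By the same measure, Olfr781, Olfr815 and Olfr804 were also among the 8 members of the larger cluster with the highest lowest percentile. Olfr781 scored 1.93, 2.85 and 4.95, and Olfr815 scored 1.87, 5.35 and 3.97. Both lacked a Stringent region at the position. Olfr804 scored 16.2, 4.24 and 2.14, at percentiles 98.9, 97.5 and 92.7.

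Family names were found for 60 of the 61 members, in 16 families, of which 6 held at least 4 members each. No family had members in both clusters. MOR114 was the largest, with 12 receptors in the larger cluster. Of these, 8 had a Stringent region, 4 a High Coverage 1 region and 3 a High Coverage 2 region. Family counts stand beside 61.7%, 36.4% and 43.6% of all named positions on the 3 arrays, and with 12 members or fewer nothing is read from them about a family. The Stringent window scores of MOR114 ran from 0.54 at Olfr768 to 14.8 at Olfr770 with a median of 9.87. By this score no receptor of the family lay between Olfr769 at 3.15 and Olfr773 at 9.43. The gap depends on the window, since the Stringent region at Olfr769 ran from 11 to 522 bp downstream and scored 12.65. The region at Olfr773 scored 9.42. MOR110, with 9 receptors, had a region at 6 on Stringent, at 4 on High Coverage 1 and at none on High Coverage 2. At Olfr806, 1 of the 4 on High Coverage 1, the region lay wholly upstream, from -266 to -99 bp. The window of Olfr806 scored 0.04 on that array. The highest Stringent scores of MOR110 were those of Olfr806 at 16.9, Olfr804 at 16.2 and Olfr782 at 15.7.

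MOR111 was the family of Olfr1518. Of its 8 receptors, 7 had a Stringent region, with 4 and 5 for High Coverage 1 and 2, and its median percentile was 94.1, 93.4 and 96.5 in the same order. The family was not uniform, since Olfr802 scored 16.6 on Stringent and -0.09 and 0.54 on the High Coverage arrays. MOR113, with 5 receptors, and MOR210, with 5, were low on Stringent, with scores of at most 5.22 and 5.34. MOR113 had a region at 2 members on each array. MOR210 had regions at 2 members on Stringent, at 1 on High Coverage 1 and at none on High Coverage 2. Olfr819 and Olfr247, the MOR265 pair, scored 10.7 and 12.6 on Stringent and between 1.00 and 1.20 on the High Coverage arrays, without a region there. Members of a family share sequence and neighbours, so they are not independent observations.

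**Figure D3:**
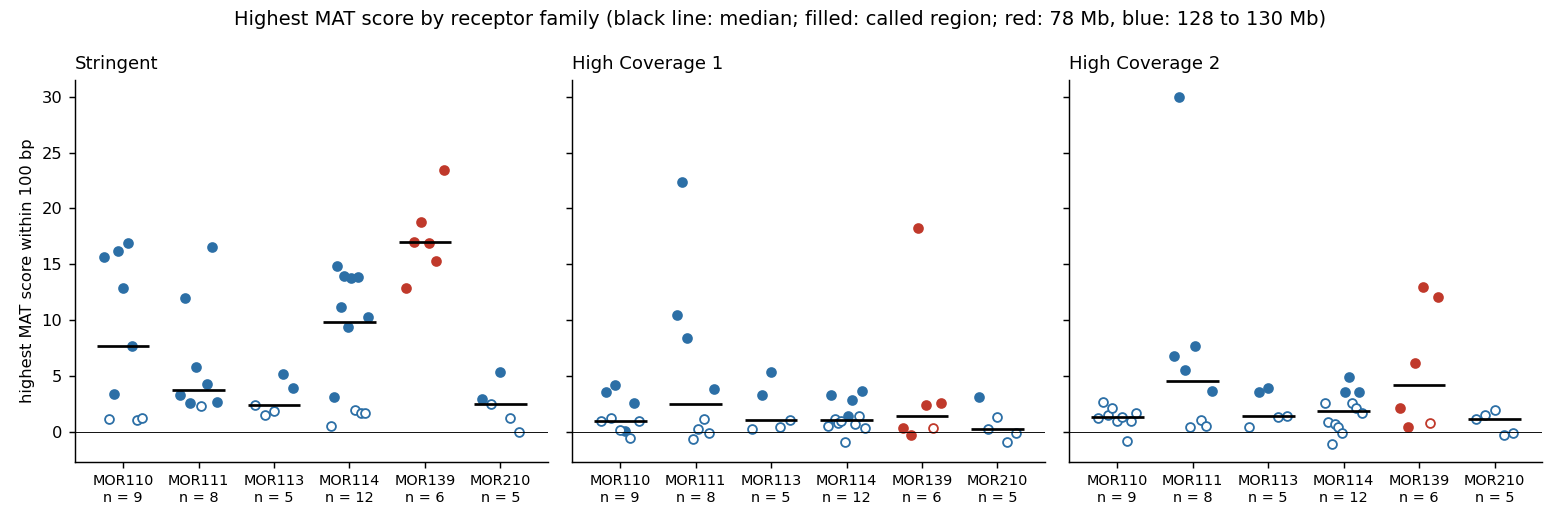
Highest MAT score within 100 bp of the position (y axis) for the receptors of the 6 families with at least 4 members (x axis), on the 3 arrays, with the median as a black line and filled points for a called region. All 6 MOR139 receptors (red, 78 Mb) lie between 12.9 and 23.4 on Stringent, where the MOR113 and MOR210 receptors (blue, larger cluster) lie at or below 5.34.

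Across the 61 members, scores of the nested product had little relation to those of the products without nesting. The highest scores had a Pearson correlation of 0.0003 between Stringent and High Coverage 1 and of 0.179 between Stringent and High Coverage 2, with Spearman's rho of -0.197 and -0.0204. Between the High Coverage arrays r was 0.719 and rho 0.626. These values describe 61 positions read on the same probes, many of them of shared families, and are not tests. The 1018 other scored positions gave much the same r. It was 0.0483 and 0.222 for Stringent with High Coverage 1 and 2, and 0.666 between the High Coverage arrays. For the 8 members near 78 Mb alone, the corresponding r was 0.0509, 0.471 and 0.146, so the pattern of the 61 did not hold there. The percentile on Stringent exceeded the mean of the High Coverage percentiles at 49 members and was lower at 12. The median difference was 8.65 points, against 3.72 at the other named positions. It was 28.3 points with the mean score of the window and 2.52 points with windows of 500 bp on each side.

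A difference was set against the spread between the High Coverage arrays, whose absolute gap had a 95th percentile of 34.3 points over all named positions. Stringent was higher by more than this at 8 members, against 8.80% of all scored positions. It was lower by more than this at 0 members, against 1.20%. That count was fixed by the scale, since the lowest Stringent percentile of any member was 83.1 and no percentile exceeds 100. The 8 were Olfr767, Olfr811, Olfr773, Olfr826, Olfr809, Olfr770, Olfr786 and Olfr765, all in the larger cluster, with differences from 55.0 down to 34.6 points. Olfr767, named MOR115, showed the widest, with 11.98 on Stringent against -0.46 and -0.91 on the High Coverage arrays. Olfr811 scored 7.69 on Stringent and -0.57 and -0.84 on the others. Olfr826, at 1.27, -0.91 and -0.31, had no region on any array, and the other 7 had a region on Stringent alone.

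The lowest differences were small, and the high Stringent percentiles of all members left little room for larger ones. Olfr1357 had the lowest of all, -5.68 points, followed in the larger cluster by Olfr776 at -4.64, Olfr774 at -4.62, Olfr815 at -4.40, Olfr784 at -4.08 and Olfr814 at -4.02. The widest gaps between the High Coverage arrays in the larger cluster were at Olfr770, Olfr773 and Olfr786. The percentile on High Coverage 1 minus that on High Coverage 2 was 64.7 points at Olfr770, -38.8 at Olfr773 and -35.8 at Olfr786. With Olfr1356, 4 members passed the 34.3-point limit between these arrays.

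**Figure D4:**
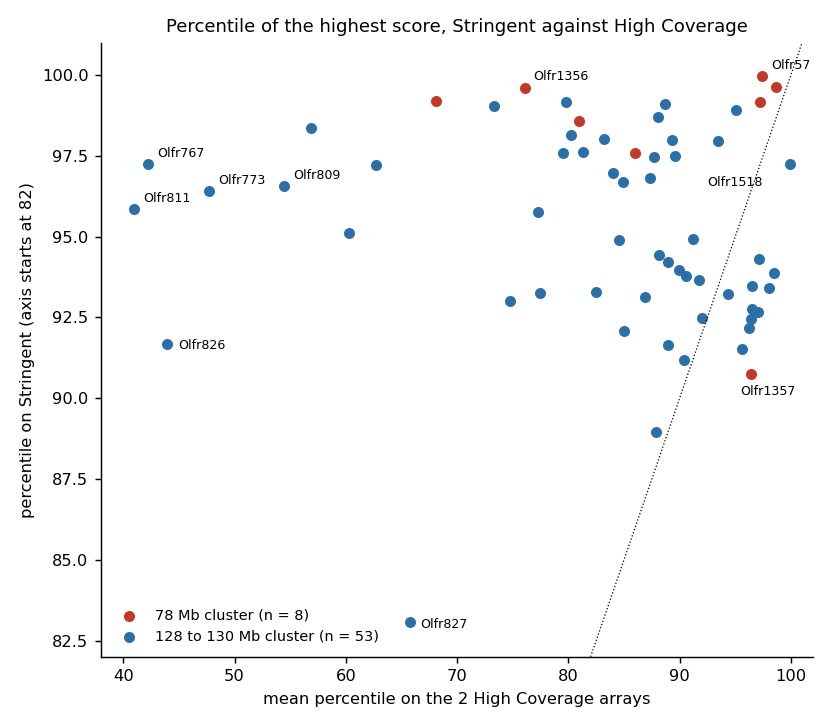
Percentile of the highest score on Stringent (y axis, from 82) against the mean percentile on the High Coverage arrays (x axis, from 38) for the 61 receptors, with the dotted line marking equal values. Of these, 49 lie above the line and 12 below it, and the receptors farthest above it are Olfr767 and Olfr811.

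The receptors without a region on any array were Olfr768, Olfr794, Olfr810, Olfr813, Olfr818, Olfr821, Olfr824, Olfr826 and Olfr827. Olfr827, at the end of the larger cluster, had the lowest highest percentile, 83.1, with scores of 0.0076, -0.10 and -0.12. Olfr818 scored 1.25, 0.94 and 1.67 and Olfr794 1.71, 1.44 and 2.15. These lie below the thresholds. Olfr818 was at percentiles 91.7, 87.2 and 90.7, but this places the highest of 33 probes among single probes. Its mean score over the 150 bp downstream was 0.36, -0.12 and -0.66. Olfr821 scored 1.47, 0.30 and 2.14. Olfr768, Olfr810, Olfr813 and Olfr824 scored between 0.54 and 2.47 on Stringent.

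Probe number moved with some of these values. Of the 53 members of the larger cluster, 6 had fewer than 30 probes in the window. Their median percentile was 93.0, 97.4 and 95.9, against 95.1, 84.8 and 88.2 for the other 47. The 6 were Olfr776, Olfr794, Olfr808, Olfr811, Olfr814 and Olfr815. Olfr811, with 27 probes, goes against these medians, at percentiles 46.1 and 35.9 on the High Coverage arrays, and Olfr794 had no region. The part of probe number in their values was not tested. By strand, 16 of 23 plus-strand and 21 of 30 minus-strand members of the larger cluster had a Stringent region. Olfr802 and Olfr803, the only members under 5 kb apart, lie 4860 bp apart on the minus strand, and their values differed, with 16.6 against 2.68 on Stringent and 0.54 against 3.64 on High Coverage 2.

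Called regions were also read away from the position, between 500 bp and 10 kb downstream and no farther than the next named position. Receptor introns and coding exons lie on that side, but where exons lie in mm9 was not analysed here. The scores carry no strand, so a region between neighbours can count for both. Where they face each other, it can count as downstream of both. On a shared strand it can count as downstream of 1 and upstream of the other. The Stringent region from 78417837 to 78418377 was thus downstream of Olfr8 and upstream of Olfr1353. On Stringent, 60 of 61 members had such a downstream region, against 87.8% of all named positions, and 17 had one on the upstream side within the same limits, against 29.1%. For High Coverage 1 the counts were 61 downstream, against 95.9%, and 27 upstream, against 50.9%. For High Coverage 2 they were 54, against 92.8%, and 22, against 48.4%. Olfr786 was the member without a downstream region on Stringent. The midpoint of the highest-scoring one lay a median of 3398.5 bp from the position on Stringent, 4999.5 bp in the 78 Mb cluster and 3238 bp in the larger cluster.

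On Stringent, 43 of the 44 members with a region at the position and all 17 without one had a downstream region. Of all named positions without a region, 76.0% had one downstream. On High Coverage 2, 34 of the 40 members without a region at the position had one downstream. The Stringent downstream regions of the 17 had scores from 3.01 to 22.2 and a median of 12.5. Olfr812, at 1.07 in its window, had a downstream region of 22.2, and Olfr827, at 0.0076, had one of 21.8 with its midpoint 6742.5 bp downstream. Olfr821 had one of 20.3 at 872.5 bp. Olfr815 and Olfr814 were low in both places, with downstream scores of 3.01 and 3.57.

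Where both were called on Stringent, the downstream region scored higher than the one at the position in 32 of 43 members, against 74.9% of all named positions with both. In the larger cluster this held for 31 of 36. In the 78 Mb cluster it held for 1 of 7, Olfr1353, with 18.8 at the position and 19.8 downstream. The clusters did not differ in this way on every array. On High Coverage 1 the counts were 5 of 6 near 78 Mb and 14 of 17 in the larger cluster. High Coverage 2 gave 2 of 7 and 11 of 13. The Stringent downstream scores of the clusters were closer to each other than those at the position. Their medians were 18.0 near 78 Mb and 15.2 in the larger cluster. For Olfr57 the Stringent region at the position scored 23.4 and the downstream one 19.3.

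**Figure D5:**
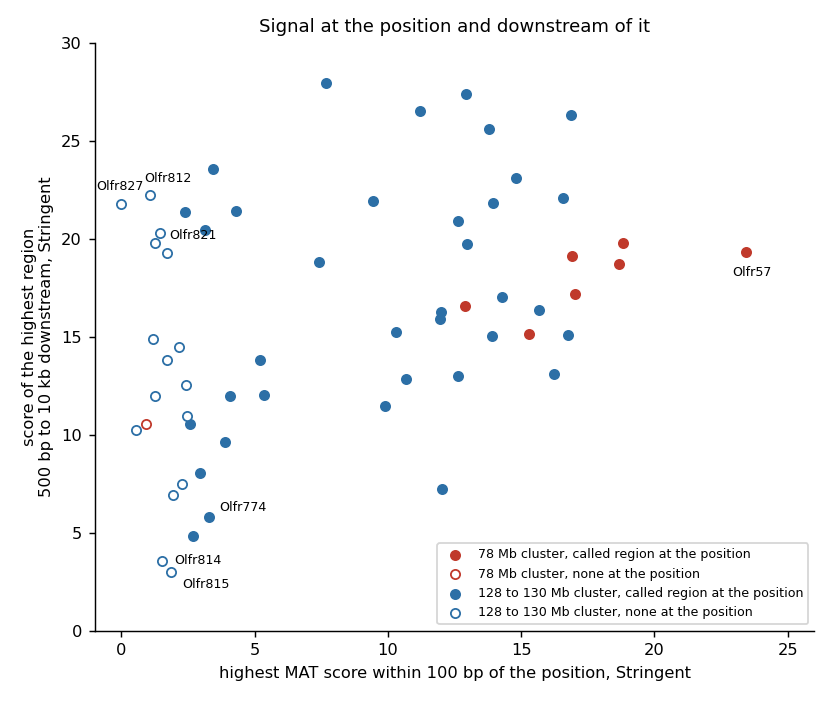
Score of the highest called Stringent region 500 bp to 10 kb downstream (y axis) against the highest Stringent score within 100 bp of the position (x axis) for the 60 receptors with a downstream region. All 17 receptors without a region at the position (open points) have a downstream score, from 3.01 to 22.2.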

How the data were processed

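Each of the 3 arrays was read through 2 kinds of deposited file. The score files give a natural-log MAT score per probe position, made by the authors from 1 array without a control. Per the file headers, the bandwidth was 50, the longest gap 30 and the fewest probes 5. The region lists hold the regions that the authors called per array at MAT score thresholds of 2.52, 2.53 and 2.99 and, per the file headers, at a false discovery rate of 0%. Per the submitters' processing notes, positions are in mm9. The deposited fold values were not used.

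A score of exactly 0 on all 3 arrays, found at 5.42% of 2313448 probes, was read as no score. A region counted at a position when it overlapped the window of 100 bp on each side by at least 1 bp. Percentiles are among the 2188086 scored probes of the array. Exact 95% intervals of shares are Clopper-Pearson's. The interval of a difference of shares combines the Clopper-Pearson limits of both by the method of variance estimates recovery. For a difference of medians, limits of each median taken from its ranked values were combined in the same way. Shares of all named positions for regions away from the position used the same limits. Regions scored by the authors were described and ranked within an array. The number of arrays limits the precision of all values. Positions of an array are not replicates, and no test was run.

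The members, lists and rules were chosen with earlier results of these data known. By rule, the text names every member near 78 Mb and, in the larger cluster, the 8 with the highest lowest percentile, the 5 with the lowest highest percentile, 5 at each end of the Stringent minus High Coverage difference, the 3 widest High Coverage gaps, the members with a region on all arrays or on none, and pairs under 5 kb apart. Other members named, the families, the motifs, the split by probe number and the regions away from the position were chosen after the values were seen. Families come from RefSeq synonyms (GRCm38.p6), which was otherwise used for names, gene order and printed sequence. Protein likeness was not analysed here. Alternatives were other windows, overlaps, scores, scales and region lists, or leaving out either High Coverage array. The overlap step was tested on simulated data. Versions were matplotlib 3.10.9, scipy 1.17.1, pandas 2.3.3, numpy 2.4.6 and Python 3.11.15.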

Additional observations from a re-analysis of the deposited data

How the results depend on the processing

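Of 50 alternative values for 13 results, 35 were counted as the same, 13 moved beyond the spread of the value as reported and 2 turned in direction. Values counted as the same stayed within that spread, with 1 exception. The scale by median and median absolute deviation has another unit, so only its direction was compared. For the share of members with a region, the upper part of the Stringent list by region score gave 54.1% in place of 72.1%, a window of 500 bp gave 55.7% on High Coverage 1 and 54.1% on High Coverage 2, and the position itself gave 19.7% on High Coverage 2. For the smaller minus the larger cluster on High Coverage 1, the share difference turned from 42.9 to -1.42 points at the position itself, and the median percentile difference turned from 0.0027 to -12.9 points with the mean score of the window. The latter difference on High Coverage 2 was then 12.1 in place of 7.47. The median percentile of the members with the mean score and with 500 bp windows was 93.1 and 97.6 on Stringent, 55.9 and 95.6 on High Coverage 1 and 63.7 and 95.02 on High Coverage 2. The median Stringent minus High Coverage difference was 28.3 with the mean score and 2.52 with 500 bp windows, and 6.05 to 10.6 points with either High Coverage array left out. The causes were not tested. Array number limits these values, since Stringent has 1 array.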

Other observations

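Some rows of chromosome 10 that the choice of members left out also carried signal. Olfr9 has 2 named positions on the plus strand. Scores are given in the order Stringent, High Coverage 1 and High Coverage 2. The position at 128426410 scored 19.98, 5.46 and 4.62, with a region on all 3 arrays. The position 6050 bp before it, at 128420360, scored 0.67, 3.17 and 1.28, with a region on High Coverage 1 alone. Olfr798 has 2 positions 1443 bp apart on the minus strand. The downstream one, at 129065001, scored 12.7, -0.12 and 0.0098, and the other, at 129066444, scored 1.00, 2.07 and 2.92. On Stringent the downstream position of either gene scored higher. On the High Coverage arrays the upstream position of Olfr798 scored higher, without a region.

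Of the 6 unannotated pseudogene positions, the one at 78375880, among the MOR139 receptors, scored 18.7, -0.36 and -0.12. Its High Coverage regions began 99 and 73 bp downstream, as at Olfr8. The position at 128478941 scored 3.54, 7.25 and 4.19, with a region on all 3 arrays. The one at 128507600 scored 2.31, 5.32 and 4.93, with a region on both High Coverage arrays and none on Stringent. At 128746421 the scores were 11.2, -0.53 and 0.07, with a region on Stringent alone. The positions at 77979920 and 129060171 had no region on any array.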
